A study of Mus musculus with 2 samples.

Results

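T-box genes encode transcription factors that share the T-box DNA-binding domain, and 9 of them were followed here: Tbx1, Tbx2, Tbx3, Tbx4, Tbx5, Tbx6, Tbx15, Tbx18 and Tbx20. They were chosen by name, from 21938 annotated protein-coding genes, and each locus was the gene body with 50 kb on each side in the build mm10. The loci joined into 8 separate intervals of 1162.43 kb in all, because the windows of Tbx2 and Tbx4 on chromosome 11 overlap. They held 173 of the 144484 accessible regions found in either library, and 79 of the 73164 found in both.

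In mm10 coordinates with GENCODE M21 gene bodies, Tbx2 lies at chr11:85832551-85841948 and Tbx4 at chr11:85886422-85916097, both on the plus strand. Tbx3 lies at chr5:119670669-119684724 and Tbx5 at chr5:119832668-119885219, also on the plus strand. Tbx6 (chr7:126781483-126785560) and Tbx15 (chr3:99240381-99354259) are on the plus strand as well. Tbx1 (chr16:18580979-18590671), Tbx18 (chr9:87702800-87731260) and Tbx20 (chr9:24718138-24774303) are on the minus strand.

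The tissue was urinary bladder of male B6CASTF1/J mice, first-generation hybrids of the inbred strains C57BL/6J and CAST/EiJ, at 14 days of age. Chromatin accessibility was measured by DNase-seq, which reads out where the nuclease DNase I can cut, namely in DNA free of nucleosomes. Both libraries belong to 1 group with no treatment, so the series holds no contrast between conditions. Replicate 1 is labelled as a male, while 3 males were pooled for replicate 2. Whole bladder mixes cell types, so that a weak signal in all cells and a strong signal in few cells cannot be told apart.

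T-box factors bind DNA as monomers or dimers at sites built around the core GGTGTGA, and several of them act together in the same developing organs. Tbx2 and Tbx3 are closely related and act mainly as repressors, including of cell cycle inhibitor genes. Tbx4 and Tbx5 act mainly as activators and are known for hindlimb and forelimb outgrowth, and in the mouse genome Tbx2 lies beside Tbx4 and Tbx3 beside Tbx5. Tbx18, with Tbx15 its nearest relative here, is known in the urinary tract for the mesenchyme that forms ureteral smooth muscle, where Tbx2 and Tbx3 also act. Tbx1 is known for the pharyngeal arches, Tbx6 for paraxial mesoderm and Tbx20 for the heart.

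The sequences that follow are the centres of the strongest accessible regions lying over 1 kb from any transcription start site (TSS) in the windows of Tbx2 and Tbx3, with the next strongest of the Tbx4 window, whose strongest is the same region as that of Tbx2. They are shown because the signal between T-box neighbours was concentrated there. All are the plus strand of mm10, read from RefSeq's GRCm38.p6, and represent C57BL/6J, so that any CAST/EiJ variant is not shown. Capitals mark bases inside DNase footprints of both libraries, which are short stretches protected from the nuclease within open chromatin. The first lies 12.3 kb after the Tbx2 start at chr11:85844721-85844920, the second 11.8 kb after it at chr11:85844211-85844410, and the third in the intergenic stretch after Tbx3 at chr5:119712961-119713160.
Tbx2 window: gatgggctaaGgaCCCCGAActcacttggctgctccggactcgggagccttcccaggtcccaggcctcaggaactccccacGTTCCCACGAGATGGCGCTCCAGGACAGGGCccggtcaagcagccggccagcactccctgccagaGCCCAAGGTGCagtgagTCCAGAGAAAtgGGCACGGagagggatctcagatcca
Tbx4 window: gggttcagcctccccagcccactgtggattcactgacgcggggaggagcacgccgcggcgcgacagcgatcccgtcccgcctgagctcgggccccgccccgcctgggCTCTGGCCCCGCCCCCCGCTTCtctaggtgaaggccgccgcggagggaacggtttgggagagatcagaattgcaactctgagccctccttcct
Tbx3 window: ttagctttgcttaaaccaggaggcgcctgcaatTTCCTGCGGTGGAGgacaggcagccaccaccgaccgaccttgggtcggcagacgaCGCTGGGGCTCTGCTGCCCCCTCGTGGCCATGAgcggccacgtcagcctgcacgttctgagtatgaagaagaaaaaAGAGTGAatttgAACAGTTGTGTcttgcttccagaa
The first holds 67 bases in shared footprints, with a longest run of 31 bases, and the third 65 bases with a longest run of 33. The median shared footprint in these loci was 19 bp wide, against 21 bp over all shared footprints. In the second sequence the 22 footprinted bases contain CCGCCC, the reverse complement of the SP/KLF motif GGGCGG. None of the 3 sequences holds the T-box core.

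Promoter sequences of the 5 members listed in the RefSeq promoter table could be matched, and those of Tbx18 and Tbx20 are shown because a region shared by both libraries overlaps them. Each runs 250 bases up to the base before the RefSeq start, on the minus strand and in the direction of transcription, at chr9:87731261-87731510 for Tbx18 and chr9:24774304-24774553 for Tbx20. Capitals again mark bases in footprints of both libraries.
Tbx18 promoter: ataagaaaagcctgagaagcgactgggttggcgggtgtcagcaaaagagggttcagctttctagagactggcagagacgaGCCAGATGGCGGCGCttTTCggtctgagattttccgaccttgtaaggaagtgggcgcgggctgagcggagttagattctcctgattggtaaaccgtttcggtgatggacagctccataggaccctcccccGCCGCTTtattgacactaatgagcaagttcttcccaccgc
Tbx20 promoter: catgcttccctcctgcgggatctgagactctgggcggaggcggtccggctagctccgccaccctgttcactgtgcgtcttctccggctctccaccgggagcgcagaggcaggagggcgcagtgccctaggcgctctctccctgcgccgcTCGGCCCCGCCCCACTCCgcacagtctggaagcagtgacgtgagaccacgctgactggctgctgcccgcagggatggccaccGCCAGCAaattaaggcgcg
In both sequences 25 bases lay in shared footprints. The longest run in the Tbx20 promoter, of 18 bases, contains the same reverse complement. A second SP/KLF match in that promoter lies outside the footprints. SP/KLF letters occur in 32.7% of all promoters in the table. The Tbx18 promoter holds none of the motifs searched, and its longest footprinted run was 15 bases.

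Of the 9 T-box genes, 7 had an open promoter, that is a region with peaks of both libraries within 1 kb of an annotated TSS. This is 77.8%, against a background of 66.1% over all protein-coding genes. Replicate 1 had a promoter peak at 9 of 9, against 70.5% of all genes, and replicate 2 at 7 of 9, against 66.9%. The signals of the open T-box promoters spanned a wide range, and their median of 2.30 was below the median of 4.61 over all open promoters. Signal here is the authors' density value per peak, with the strongest peak taken for each region.

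Tbx3 had the strongest promoter, with a signal of 8.67 in replicate 1 and 8.05 in replicate 2 (mean 8.36 ± 0.441, SD, n = 2). That mean was above 78.6% of open promoters. The region, chr5:119670521-119671080, also covers the start of the antisense gene Tbx3os1, and unstranded DNase cuts cannot be assigned to either gene. It held 6 shared footprints, and 2 weaker shared regions flanked it, with means of 1.40 ± 0.0119 and 1.05 ± 0.0602.

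Tbx2 followed with 6.83 in replicate 1 and 5.24 in replicate 2 (mean 6.03 ± 1.12), above 62.1% of open promoters. Its region, chr11:85832461-85832840, starts just upstream of the TSS, runs into the gene and held 4 shared footprints. The start of the gene 2610027K06Rik lies within 1 kb of it. Both replicates of Tbx3 lay above both replicates of Tbx2, and both of Tbx2 above those of every other member.

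Tbx6 had 3.96 in replicate 1 and 2.58 in replicate 2 (mean 3.27 ± 0.972). Its only promoter region, chr7:126780701-126780880, has its edge 603 bp upstream of the TSS, so that it was not counted with a window of 500 bp. Tbx18 had 2.35 and 2.24 (mean 2.30 ± 0.0813) and Tbx20 had 2.29 and 2.25 (mean 2.27 ± 0.0314) in replicates 1 and 2. The ranges of Tbx18 and Tbx20 overlapped, and both lay below both values of Tbx6. The means of Tbx18 and Tbx20 were above 26.7% and 26.4% of open promoters.

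Tbx5 and Tbx15 were at the low end. Tbx5 had 0.510 in replicate 1 and 0.783 in replicate 2 (mean 0.647 ± 0.193), in a region whose edge is 768 bp from its start and whose centre is 240 bp from a start of the long non-coding RNA gene Gm43050. It had 3 further weak shared regions within 1 kb of its starts, with means of 0.479 to 0.623. Tbx15 had 0.521 and 0.616 (mean 0.568 ± 0.0671), at a start at position 99253760 of chromosome 3, and no peak in either library at its most upstream start. The ranges of these 2 genes overlapped, and their means were above only 5.00% and 3.70% of open promoters. Neither gene's promoter was open in the stricter peak lists, which keep 5 open T-box promoters (Tbx2, Tbx3, Tbx6, Tbx18 and Tbx20).

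Tbx1 and Tbx4 had promoter peaks in replicate 1 alone. Tbx1 had 1, with a signal of 0.734, and Tbx4 had 2, with signals of 0.427 and 0.484. Replicate 1 is the deeper library by its number of peaks, 139821 against 82225 in replicate 2. Within replicate 1 the Tbx1 peak was above every shared promoter region of Tbx5 and Tbx15, whose signals there ran from 0.359 to 0.630, so that the calls of these genes differ by their peaks in replicate 2. If 1 signal step is 1 cut, the 95% Poisson interval of the Tbx1 peak in replicate 1 runs from 0.618 to 0.866. That of the shared Tbx5 promoter region strongest in replicate 1 (0.630) runs from 0.523 to 0.753, so the intervals overlap. Both cover counting error only.

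**Figure D1:**
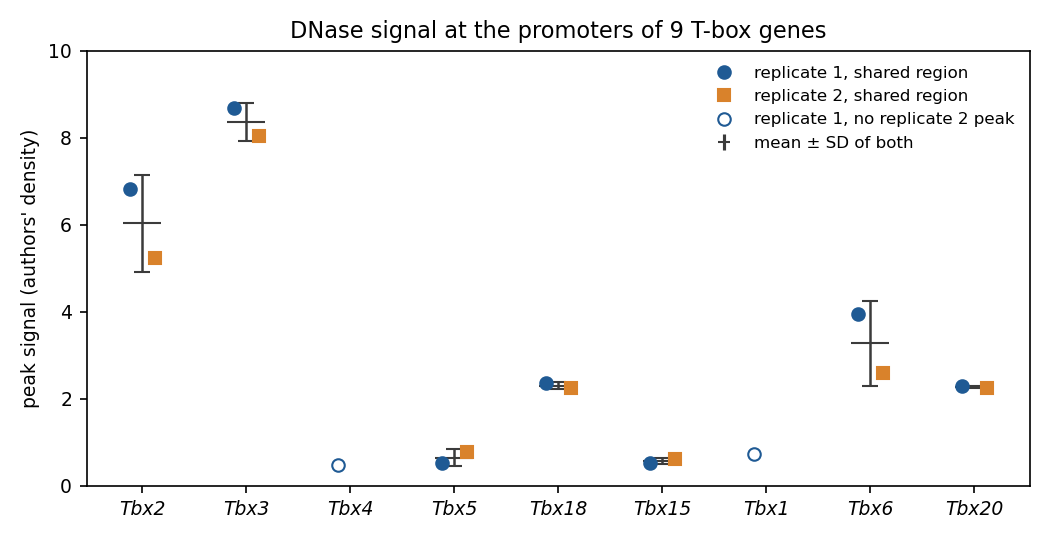
DNase peak signal (the authors' density, linear axis) of the strongest promoter region of each T-box gene, with circles for replicate 1, squares for replicate 2, and the mean ± SD of both. Tbx3 and Tbx2 stand above the other members in both libraries, and the open circles of Tbx4 (0.484) and Tbx1 (0.734) have no replicate 2 peak.

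The breadth of open chromatin at the starts set a different order from peak height. Within 1 kb of the most upstream start, a window of 2001 bp, the bases at an authors' false discovery rate (FDR) of 0.05 or lower in both libraries numbered 1607 at Tbx2, 1352 at Tbx3 and 1284 at Tbx18. The median over all open genes was 791 bp, and these 3 counts were above 95.8%, 88.4% and 85.4% of open genes. Tbx18 thus had broad coverage beside a peak signal in the lower part of the range. Its second promoter region, chr9:87729477-87731200, spans 1724 bp, which is wider than 99.993% of shared regions, whose median width was 218 bp. This width depends on the joining of overlapping peaks. At this promoter replicate 1 alone had 4 regions and replicate 2 alone 3, against 2 after joining. The 1724 bp region was shallow in both libraries, with 0.760 in replicate 1 and 0.959 in replicate 2. A start of the gene D030062O11Rik lies within 1 kb of that region. Tbx20 had 672 bp, Tbx5 had 281 bp and Tbx6 had 250 bp, all under the median of open genes. Tbx1, Tbx4 and Tbx15 had none at the most upstream start.

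The number of shared regions around the genes varied over a wide range. Tbx2 had 25 shared regions, or 22.9 per 100 kb, and 99.5% of protein-coding genes had a lower density. Tbx6 had 12 (11.5 per 100 kb), Tbx3 had 13 (11.4) and Tbx4 had 14 (10.8), which were above 86.8%, 86.4% and 84.6% of genes. Tbx1 had 8 (7.29 per 100 kb) and Tbx5 had 9 (5.90). Tbx18 with 5 (3.89), Tbx15 with 3 (1.40) and Tbx20 with 2 (1.28) were below the median. The median over the 9 loci was 7.29 per 100 kb, against 4.91 over all genes, for which the middle 50% ran from 1.93 to 8.67.

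Much of this median came from promoters of other genes. Counting only regions over 1 kb from any TSS, the median was 2.88 per 100 kb over the T-box loci and 2.10 over all genes. On that count Tbx2 had 20.1 per 100 kb, above 99.99% of genes. Tbx4, with 10.8, was above 98.8%, and Tbx3, with 7.01, above 92.9%. Tbx4 shares 12 of its 14 regions with the Tbx2 window, so these 2 values are not independent. Tbx6 had 2.88 on this count and Tbx20 had none.

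**Figure D2:**
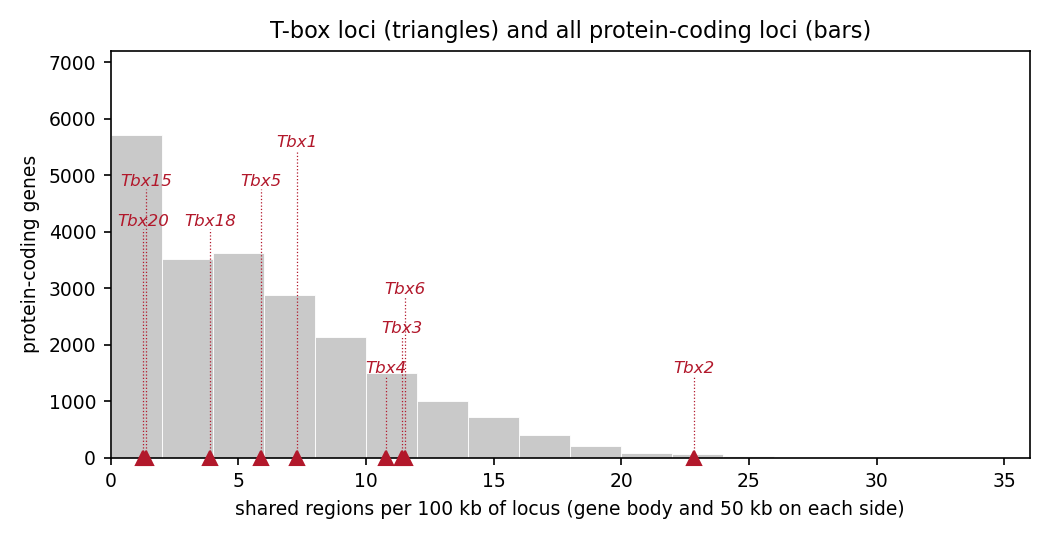
Shared regions per 100 kb of locus for the 9 T-box loci (triangles, with names) and the number of protein-coding genes in bins of 2 per 100 kb (bars). Tbx2 stands at 22.9, far into the upper tail, while Tbx15 and Tbx20 fall in the lowest bin.

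Around Tbx2 and Tbx4 the neighbourhood of 183.547 kb held 60 regions, 27 of them shared, and the shared ones lay mostly at and around Tbx2. The 50 kb before Tbx2 held 11 shared regions, the Tbx2 body 5, the 44.473 kb between the genes 8, the Tbx4 body 2 and the 50 kb after Tbx4 only 1. All 8 between the genes lay on the Tbx2 side, 9.62 to 16.7 kb after its start. The strongest was the first sequence printed, with 8.50 in replicate 1 and 5.80 in replicate 2 (mean 7.15), above the Tbx2 promoter's own mean of 6.03. It carried 5 shared footprints. The region about 0.5 kb before it had 6.90 and 4.36, and the one at chr11:85843321-85843620 had 3.69 and 3.45, in replicates 1 and 2.

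Upstream of Tbx2 the strongest shared region, chr11:85823301-85823500, lies 9.15 kb before the start in an intron of the neighbouring gene Bcas3. It had 7.47 in replicate 1 and 4.17 in replicate 2, held 3 shared footprints and matched the ETS motif CCGGAA. A further group of 4 shared regions lay 39.5 to 42.6 kb before the start, also in Bcas3 introns, with means from 0.748 to 2.65. Within the Tbx4 gene the shared regions had means of 0.614 and 1.00, within the range of the weaker shared regions near Tbx2, such as 0.768 and 0.881 in its body, and under the strongest ones there.

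A stretch of 8.106 kb just upstream of Tbx2, chr11:85820419-85828524, differed between the libraries. It held 14 regions found in replicate 2 alone, none in replicate 1 alone and 3 shared ones. The replicate 2 signals there ran from 0.296 to 0.568, and 7 of the 14 regions touched that library's stricter list. Bases at an FDR of 0.05 or lower made up 53.0% of the stretch in replicate 2 and 10.2% in replicate 1. In the T-box loci 14.5% of regions were found in replicate 2 alone, against 5.07% over the genome, and 16 of these 25 regions lie in the Tbx2 window. In all, 8 places in the genome had as many such regions within that length. None of them counts as shared, so they do not enter the Tbx2 density; the cause was not tested.

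**Figure D3:**
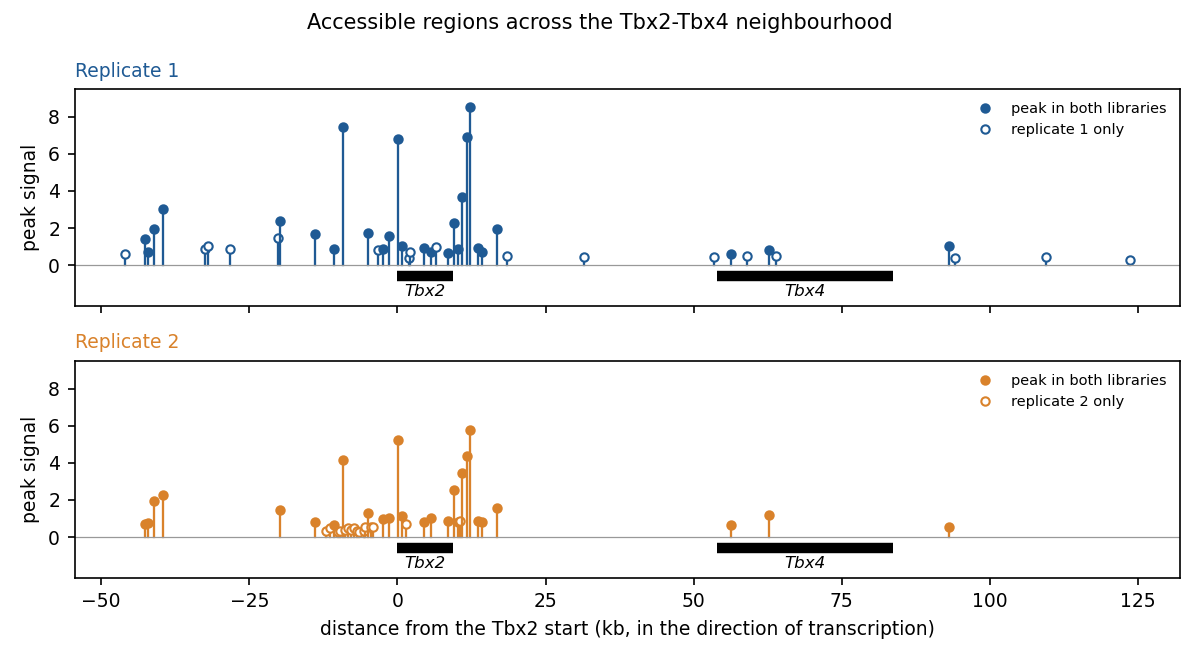
Peak signal of each accessible region across the Tbx2-Tbx4 neighbourhood by distance from the Tbx2 start (kb), with replicate 1 in the upper and replicate 2 in the lower panel. Filled points are regions found in both libraries, open points are regions of that library alone, and black bars are gene bodies. The strongest shared regions lie between 9.15 kb before the Tbx2 start and 12.3 kb after it, and the open points before Tbx2 in the lower panel are the 14 regions of replicate 2.

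Around Tbx3 and Tbx5 the neighbourhood of 314.551 kb held 58 regions, 24 of them shared, with a different balance between libraries. In the Tbx3 body 13 of 16 regions were found in replicate 1 alone and none in replicate 2 alone. Over the genome 50.6% of regions were shared and 5.07% were of replicate 2 alone. Most unshared regions were thus of replicate 1, the library with more peaks, there as well. The strongest shared region outside promoters lay 32.8 kb after the nearest annotated Tbx3 start, the third sequence printed, with 4.20 in replicate 1 and 3.36 in replicate 2. The next, at chr5:119686241-119686520 just after the gene, had 3.82 and 2.33. Between them, at chr5:119691221-119691380, a shared region at the start of the long non-coding RNA gene Tbx3os2 had 4.22 and 2.69. All 3 carried footprints of both libraries, numbering 4, 3 and 2 in that order.

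The side of Tbx5 was weak throughout. None of its 9 shared regions exceeded a mean of 0.717, and the 147.943 kb between Tbx3 and Tbx5 had its strong regions on the Tbx3 side. Within the Tbx5 window, 2 footprint sites were found in both libraries, against 24 in the Tbx3 window and 38 in that of Tbx2.

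**Figure D4:**
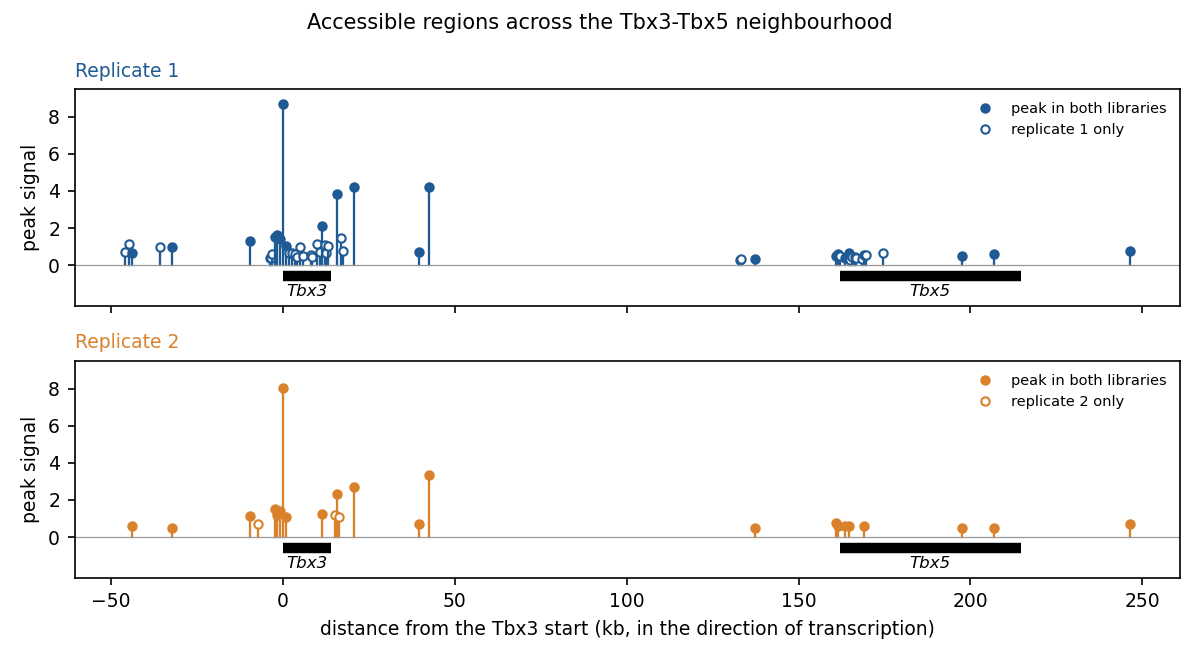
Peak signal of each accessible region across the Tbx3-Tbx5 neighbourhood by distance from the Tbx3 start (kb), with replicate 1 above and replicate 2 below. Filled points are regions found in both libraries, open points those of that library alone, and black bars gene bodies. Signals above 2 in both libraries lie at the Tbx3 promoter and downstream of it, and all shared regions of the Tbx5 window stay under 0.8.

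In the window of Tbx18 the strongest region outside promoters was intronic, chr9:87708261-87708440, with 1.63 in replicate 1 and 0.935 in replicate 2 and 3 shared footprints. Tbx15 had a single shared region over 1 kb from any TSS, chr3:99234081-99234280, 6.20 kb before the gene in an intron of Wars2. Its signals were 1.02 and 0.767, above those of the Tbx15 promoter in both libraries. It matched the GATA motif AGATAA and the TEAD motif GGAATG.

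Tbx1 had no shared promoter region, yet a strong region lay 27.2 kb upstream of its start at chr16:18617741-18617940. It had 4.41 in replicate 1 and 4.24 in replicate 2, with 4 shared footprints, and lies 3.80 kb from the nearest start, that of Gp1bb. The other strong regions of this window were at the promoters of Sept5, with 2.85 and 3.31, and of Gnb1l, with 2.10 and 1.31 inside the window.

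The Tbx6 window on chromosome 7 is gene-dense, and its strongest regions were promoters of neighbours. Aldoa, encoding a glycolytic aldolase, had 11.3 in replicate 1 and 8.75 in replicate 2. Ppp4c, encoding a protein phosphatase catalytic subunit, had 11.2 and 8.87. Ypel3 had 8.58 and 6.92, and Mapk3, encoding the kinase ERK1, had 4.90 and 4.49. The promoter of Tbx6 was below all of these in both libraries. In the Tbx20 window only its own promoter and a weak region at Dpy19l2, with 0.500 in replicate 1 and 0.384 in replicate 2, were shared.

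**Figure D5:**
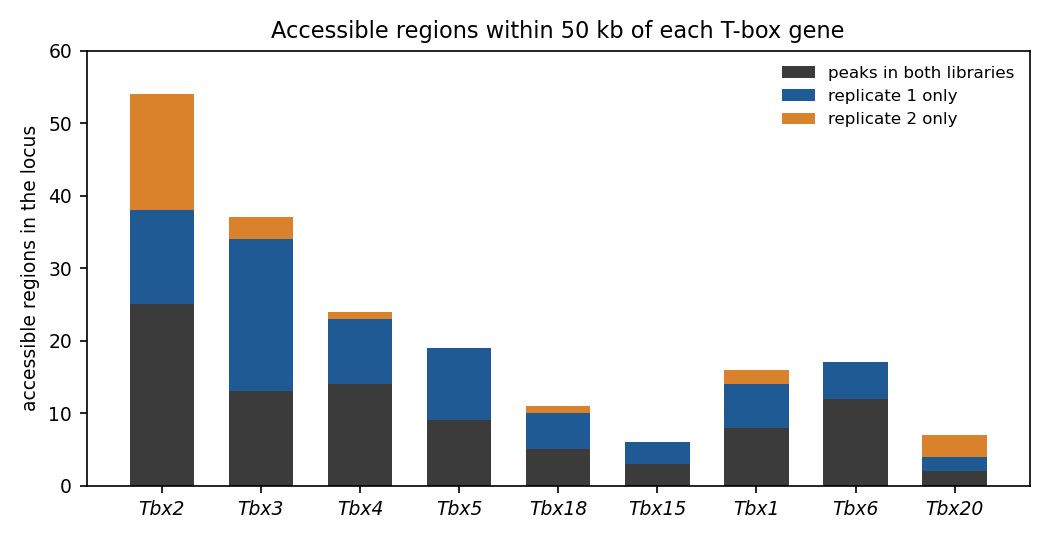
Accessible regions in each T-box locus as stacked bars from 0, divided into regions with peaks of both libraries, of replicate 1 only and of replicate 2 only. Tbx2 has the most shared regions (25) and the most of replicate 2 only (16), and Tbx3 the most of replicate 1 only (21). Tbx2 and Tbx4 share 12 of the shared regions.

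Over all T-box loci, 45.7% of regions had peaks of both libraries, against a background of 50.6%. For footprints the share was 22.8% (122 of 536 sites), against 28.6%. Both shares were a little under the background. The regions counted include the 14 of replicate 2 alone upstream of Tbx2, which lower the first share. Bases at an FDR of 0.05 or lower in both libraries made up 2.25% of the T-box loci, against 0.895% of the genome. Around genes in general such bases are frequent, and the median over the 9 loci, 1.90%, was close to the 1.85% over all protein-coding loci. Tbx2 reached 7.81%, above 98.7% of genes. The shared regions had a median log2 ratio of replicate 1 over replicate 2 of -0.27, after scaling each library to its median, with a range from -1.13 to 0.64. Over all shared regions it was -0.10, and the SD was 0.42 for both sets.

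By place, 14 of the 79 shared regions were centred in member promoters and 19 in promoters of other genes. Introns held 18, exons 4 and intergenic sequence 24. The median mean signal was highest at promoters of other genes (2.01), above intergenic regions (1.36), introns (1.15) and member promoters (1.08).

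The T-box core GGTGTGA, searched on both strands in the central 200 bp, occurred in 3 of 79 shared regions (3.80%), against a background of 2.70% over all shared regions. The 3 lie at chr5:119668881-119669360, 1.55 kb before the Tbx3 start, at chr5:119710121-119710460, 30.0 kb after the nearest Tbx3 start, and at chr5:119834181-119834282 beside a Tbx5 start. With so few matches, 1 region moves the share by over a percentage point. None of the 122 shared footprints held the core, against 0.136% of shared footprints genome-wide, which is less than 1 footprint at this number.

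The SP/KLF motif GGGCGG was in 38.0% of the T-box regions, against 25.1% of all shared regions, and in 21.7% against 11.2% of those over 1 kb from any TSS. The GATA motif was in 10.1%, against 6.47%, and the RUNX motif TGTGGT in 11.4%, against 12.2%. Several motifs were less frequent in the T-box regions than in all shared regions. The E-box CAGCTG was in 7.59% against 18.3%, TEAD in 5.06% against 12.3%, the NFI motif TTGGCA in 7.59% against 14.9% and the AP-1 motif TGANTCA in 6.33% against 11.5%. The ETS motif was in 3.80% against 8.79%, the FOX motif TGTTTAC in 1.27% against 3.05% and the homeobox motif TAATTA in 1.27% against 1.70%. The GLI motif TGGGTGGTC and the CArG box had no match in the T-box regions, against 0.119% and 0.882% of all shared regions. The T-box regions had a median GC content of 58.0%, against 55.0%, and neighbouring regions share base composition, so these shares are descriptions with no test. SP/KLF matches fell in 10.7% of the shared footprints of the loci, against 11.9% of all shared footprints, so that the higher share of regions was not seen in the footprints.

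The starts of the T-box genes differed in their content of CpG dinucleotides. The observed over expected CpG ratio within 500 bp of the most upstream start had a median of 0.603, against 0.553 over all protein-coding genes. The median member, Tbx1, was above 54.4% of genes, and Tbx4 (0.511), Tbx5 (0.425), Tbx15 and Tbx6 were below the median of all genes. The ratio was highest at Tbx3 (0.823), Tbx2 (0.756) and Tbx18 (0.753), the 3 genes with most accessible bases at their starts, and lowest at Tbx6 (0.330) and Tbx15 (0.363). The most upstream start of Tbx15 had no peak in either library. The ratio at its start with shared regions was not computed.

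Among 8 other T-box genes 3 promoters were open, or 37.5%, against the same background of 66.1%. Mga, a T-box protein that pairs with Max, had 9.87 in replicate 1 and 7.98 in replicate 2. Tbr1 had 0.510 and 0.496, and Tbx22 had 0.213 and 0.168, both near the low end. Brachyury (T), Tbx10 and Tbx19 had no peak in either library, while Eomes had one in replicate 2 and Tbx21 in replicate 1 only.

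Of 12 genes known to act beside T-box factors, 10 were open (83.3%). Max, with 12.1 in replicate 1 and 10.9 in replicate 2, and Mga were the strongest. Gata6 had 4.59 and 3.97. Nkx2-5, the cardiac partner of Tbx5 and Tbx20, had no peak, and Pax3 had one in replicate 1 only. Of 17 genes reported in other tissues as targets of T-box factors, 14 were open (82.4%). Smad6, an inhibitor of BMP signalling, had 12.9 and 9.63. The gap junction gene Gja5 had 6.54 and 5.99, the cell cycle inhibitor gene Cdkn1a had 6.20 and 6.20, and the cadherin gene Cdh1 had 6.67 and 4.47. Nppa, the atrial natriuretic peptide gene, had no peak in either library. Both shares were above the background of 66.1%. The lists are short and were chosen with earlier results of these data known, so no more is drawn from them. Mga counts both here and among the other T-box genes.

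The labelled tissue was checked by markers. All 10 urothelium, 8 smooth muscle, 8 fibroblast and 4 mesothelium markers (Msln, Upk3b, Lrrn4 and Krt8) had open promoters. Of 6 endothelium markers 3 were open, of 6 immune markers 1, of 6 striated muscle markers 2 and of 4 liver markers none. The background over all protein-coding genes was 66.1%, so open promoters in such short lists say little about any 1 cell type. The promoters of the striated muscle genes Myod1, Myog, Myh6 and Tnnt2 had no peak in either library. The other 2 of this list were open. Ckm had 4.004 in replicate 1 and 2.742 in replicate 2, and Actn2 had 2.40 and 1.52.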

How the data were processed

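DNase-seq of urinary bladder was analysed in 2 libraries of 1 group, biological replicates 1 and 2 by the labels, so p-values between conditions could not be computed and the spread is that of these 2 samples. Each library has 2 deposited peak lists with a signal value per peak, a footprint list and an FDR track, each made without pooling the replicates, per the deposited notes. The scaling of the signal by the authors, the aligner and the callers are not stated in those notes or in the labels. All signals were whole multiples of 1 step (0.00521 in replicate 1, 0.00799 in replicate 2), within 0.01 steps. The deposited FDR track gives the authors' p-value-like false discovery rate of 0.05 or lower per stretch, and every deposited footprint carried 0.01, so footprints served as positions only. The looser peak lists were used, with 139821 and 82225 peaks in replicates 1 and 2. The stricter lists hold 87441 and 50869.

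Peaks overlapping by at least 1 bp were joined into regions. A region with peaks of both libraries was shared, and its signal in a library was that of its strongest peak. A promoter was open where a shared region lay within 1 kb of any TSS in GENCODE M21, measured from the region's edge, while places were assigned by the centre. Densities were taken over the gene body and 50 kb on each side. Footprint sites were joined in the same way. Sequence came from the RefSeq assembly GRCm38.p6. Coordinates are 1-based. Motifs were consensus letters searched on both strands in the central 200 bp, and overlapping matches of different motifs each counted.

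All 9 members were described. Named were each member's promoter regions, its strongest shared regions over 1 kb from any TSS, its neighbours, and up to 4 open genes and 4 without a peak in each list. The rule also picked 1 gene that is not reported here. The upstream stretch of Tbx2, the widths and the CpG order were picked out after their values were seen. The members and lists were chosen with earlier results of these data known. Alternatives were the stricter lists, equal numbers of peaks, the stronger 50% of peaks, a reciprocal overlap of 50%, each replicate alone, other promoter windows, flanks, FDR thresholds, motif windows and scalings. Python 3.11.15, numpy 2.4.6, scipy 1.17.1, matplotlib 3.10.9, bedtools 2.31.1 and samtools 1.23.1 were used. The steps were tested on simulated data, where 400 of 400 planted open promoters among 1000 genes and 250 of 250 planted motifs were recovered.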

Additional observations from a re-analysis of the deposited data

How the results depend on the processing

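No paired analysis was possible because the 2 libraries form 1 group. The number of open T-box promoters stayed between 5 and 9. It was 5 with the stricter lists and with the stronger 50% of peaks (without Tbx5 and Tbx15), 6 with equal numbers of peaks and with the most upstream start alone (without Tbx15), 6 with a window of 500 bp (without Tbx6) and 9 with a window of 2500 bp. The count was 7 with replicate 2 alone and 9 with replicate 1 alone, against 66.9% and 70.5% of all genes. With the stricter lists 61.8% of all genes were open, with the stronger 50% of peaks 59.1% and with equal numbers 63.7%. The 5 of 9 T-box genes with the stricter lists and with the stronger 50% lay below those shares. For the other promoter windows and starts no share over all genes was computed. The 79 shared regions were 43 with the stricter lists, 49 with the stronger 50% of peaks, 49 with a flank of 10 kb and 20 in gene bodies alone. Each library alone held 107 to 153 regions, shared or not. The median of 7.29 per 100 kb was 4.38 with the stricter lists, against 3.46 over all genes. It was 3.84 without promoters of other genes and 2.88 with regions over 1 kb from any TSS, an alternative chosen after seeing the data. Replicate 2 alone gave 9.12, against 5.37 over all genes, and replicate 1 alone gave 12.8, against 8.68. The setting without promoters of other genes has no median over all genes beside it. The T-box core share of 3.80% was 2.33% with the stricter lists, 2.86% with equal numbers, 2.04% with the stronger 50% and 3.03% with reciprocal overlap. For the letters AGGTGTGA it was 1.27% (1 of 79 regions), against 0.614% over all shared regions. It was 1.27% in a window of 100 bp, 6.33% over whole regions and 1.87 to 2.61% in each library alone. Shares over all regions were not computed for these other settings, so their values cannot be set against the 2.70% of the main setting. The 122 shared footprint sites were 76 with a flank of 10 kb and 21 in gene bodies, and each library alone had 278 to 399. The 2.25% of accessible bases was 1.15% at an FDR of 0.001 and 3.48% with a flank of 10 kb, and 2.84 to 4.31% in each library alone. The replicate log2 ratio of -0.27 was 0.13 without scaling and 0.74 in steps. Promoter signals are the deposited value of the strongest peak, so other windows and lists mostly return the same value and say nothing of its stability. Tbx5 and Tbx15 have no value in the stricter lists, nor has Tbx6 with the window of 500 bp. Of 54 recounts of regions per locus, 28 moved by more than 1.5 times. These recounts include each library alone, where all its regions count, shared or not. Shared regions in the stricter lists numbered 13 at Tbx2, 12 at Tbx6, 6 at Tbx4 and 5 each at Tbx1, Tbx3 and Tbx18. Tbx5 and Tbx20 kept 1 each and Tbx15 none. The promoter peaks of Tbx1 and Tbx4 were found in the deeper library alone, and the part of depth in this was not tested.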
